A study of Mus musculus with 4 samples.

Results

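The regions described here are the nonpromoter sites of the most gene-dense parts of the mouse genome: 1522 of the 82325 accessible sites measured by ATAC-Seq in immortalized fibroblasts. A site was a member when it lay on an autosome, had 40 or more protein-coding transcription start sites (TSSs) within 500 kb on either side of its midpoint and had no TSS of any gene within 3 kb. The start sites were those of GENCODE genes on mm10, with 1 start per gene. The rule used no accessibility value, although it was chosen with earlier results of these data known. In ATAC-Seq the Tn5 transposase cuts open DNA and inserts sequencing adapters, so a more open site gathers more reads. All lines were mouse embryonic fibroblasts of the C57bl6 background, immortalized by transfecting SV40 T antigen into early-passage primary cells. HAT1+/+ lines (WT, 2 libraries) were compared with HAT1-/- lines (KO, 2 libraries), and each library came from its own line, so the spread within a genotype is that between 2 lines. All 4 lines carried the viral antigen, which disables p53 and RB, and none was treated. The comparison asked which sites gain or lose accessibility without HAT1.

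HAT1 acetylates newly made histone H4 before it is deposited behind the replication fork. Gene-dense chromatin is rich in GC, replicates early and lies mostly in the interior of the nucleus, whereas gene-poor chromatin is often packed at the nuclear lamina. Nonpromoter accessible sites include enhancers, which are bound by factors such as the AP-1 dimers of Fos and Jun proteins in fibroblasts, and insulators bound by CTCF.

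The values are normalized read counts, taken here to be reads per site divided by a factor for each library and rounded. The low values put the number of reads in sites at about 9420000 and 11400000 for the WT libraries (replicates 1 and 2) and at 7830000 and 5680000 for the KO libraries, so counting error was larger in KO. Of the fibroblast marker genes 9 of 10 had a promoter site, with summed values of 2490 to 3093 per library, the exception being Pdgfra. None of 6 blood markers had one. The sums were 130 to 232 for epithelial markers (4 of 6 with a site, Krt18 and Cldn4 without), 203 to 312 for endothelial (3 of 5, Cdh5 and Tie1 without) and 43 to 110 for neural (2 of 5, Rbfox3, Syp and Pax6 without). The Hat1 promoter site was at 390 and 384 in WT and at 438 and 368 in KO. An open promoter does not check the knockout.

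The sequences of 5 members are shown because these are the 3 strongest sites and the 2 that were called different between genotypes. They are from GRCm38 (mm10), plus strand, 300 bases around the midpoint or the whole site where it is shorter. Capitals mark matches on either strand to TGANTCA (AP-1), AGGNGGCNC (part of the CTCF core), CCGGAAG (ETS), GGGCGG (GC box), GGAATG (TEAD) and TGTGGT (RUNX). The Plec site is shown at chr15:76196154-76196453, the Ptprs site at chr17:56462363-56462662, the Malat1-side site at chr19:5794239-5794538, the Rabggta site at chr14:55730125-55730424 and the Sugp2 site at chr8:70237948-70238200.
Plec: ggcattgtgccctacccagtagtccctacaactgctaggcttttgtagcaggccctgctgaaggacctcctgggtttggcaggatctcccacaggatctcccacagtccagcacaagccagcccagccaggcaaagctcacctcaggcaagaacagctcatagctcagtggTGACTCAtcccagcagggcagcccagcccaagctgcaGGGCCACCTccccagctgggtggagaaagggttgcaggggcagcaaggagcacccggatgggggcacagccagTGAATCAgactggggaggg
Ptprs: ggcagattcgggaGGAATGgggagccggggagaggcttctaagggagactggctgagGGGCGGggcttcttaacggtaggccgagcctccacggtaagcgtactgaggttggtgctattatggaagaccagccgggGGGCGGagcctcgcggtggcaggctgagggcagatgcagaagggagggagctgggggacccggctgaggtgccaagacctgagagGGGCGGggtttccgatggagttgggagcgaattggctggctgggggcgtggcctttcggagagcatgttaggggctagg
Malat1 side: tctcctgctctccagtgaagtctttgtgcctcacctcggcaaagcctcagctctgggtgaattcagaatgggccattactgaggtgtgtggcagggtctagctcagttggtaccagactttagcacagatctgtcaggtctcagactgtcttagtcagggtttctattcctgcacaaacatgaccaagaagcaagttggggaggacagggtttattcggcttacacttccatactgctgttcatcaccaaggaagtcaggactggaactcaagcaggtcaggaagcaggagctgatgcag
Rabggta: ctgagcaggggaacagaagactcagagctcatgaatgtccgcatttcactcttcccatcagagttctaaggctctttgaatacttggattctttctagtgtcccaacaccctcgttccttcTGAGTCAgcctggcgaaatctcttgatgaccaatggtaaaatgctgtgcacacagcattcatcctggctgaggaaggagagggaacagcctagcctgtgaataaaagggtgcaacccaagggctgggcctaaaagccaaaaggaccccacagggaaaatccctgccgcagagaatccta
Sugp2: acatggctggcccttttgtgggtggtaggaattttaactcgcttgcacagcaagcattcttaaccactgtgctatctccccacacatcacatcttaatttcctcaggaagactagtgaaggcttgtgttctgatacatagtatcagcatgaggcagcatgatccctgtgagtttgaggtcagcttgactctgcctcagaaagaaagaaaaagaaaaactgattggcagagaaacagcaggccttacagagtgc
The Plec window held 2 AP-1 matches and 1 match to the CTCF part, with 61.7% GC. The Ptprs window had 65% GC, 17 CpG dinucleotides, 3 GC boxes and 1 TEAD match, and no AP-1 match. Of the called sites, the one near Rabggta held 1 AP-1 match, and the one in Sugp2 held none of the motifs marked. In the Malat1-side window 53.3% of the bases were soft-masked as repeats, as were 40.3% of those in the Sugp2 site.

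The strongest member lay in an intron of Plec, which encodes plectin, a linker of intermediate filaments to the membrane and to other filaments (chr15:76195559-76197048, 0.593 kb from an alternative transcript start). Its normalized counts were 1141 and 1174 in WT and 1622 and 1433 in KO. Both KO libraries were above both WT libraries, and the log2 fold change, KO over WT on the log2(value + 1) scale, was 0.40 (SE 0.07, limma adjusted p = 1). The intronic Ptprs site (chr17:56461768-56463256), in a receptor tyrosine phosphatase gene and 0.296 kb from an alternative start, had 1043 and 978 in WT and 1070 and 1224 in KO. The groups did not overlap, with a log2 fold change of 0.18 (SE 0.08). Close to Dot1l, which encodes a histone H3 methyltransferase, an intergenic site (chr10:80751258-80752704) had 925 and 913 in WT and 904 and 1063 in KO, with KO values on both sides of WT.

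Near Atp5h, a subunit gene of the mitochondrial ATP synthase, the site at chr11:115412409-115414034 had 864 and 887 in WT and 984 and 1074 in KO, so the log2 fold change was 0.23 (SE 0.07). A site lying 8.36 kb from Ier3, an immediate early gene, had 760 and 807 in WT and 946 and 875 in KO (0.22, SE 0.08). Both were higher in each KO library than in either WT library, by less than the 2-fold needed for a call. The longest of the strong sites, 2298 bp, lay 1.3 kb from the body of the long noncoding RNA gene Malat1 (chr19:5793240-5795537). It had 729 and 900 in WT against 1335 and 911 in KO, so KO replicate 1 stood far above the rest and KO replicate 2 just above WT replicate 2. Strong sites of every class leaned this way: at a mean of 240 or more the median log2 fold change was 0.17 for 137 members, 0.16 for the other nonpromoter sites and 0.16 for the promoter sites of dense regions. With quantile normalization, which gives all libraries the same distribution, the Plec site was at 0.086, and the Ptprs, Dot1l, Atp5h and Ier3 sites fell below 0, at -0.12, -0.17, -0.020 and -0.014.

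**Figure D1:**
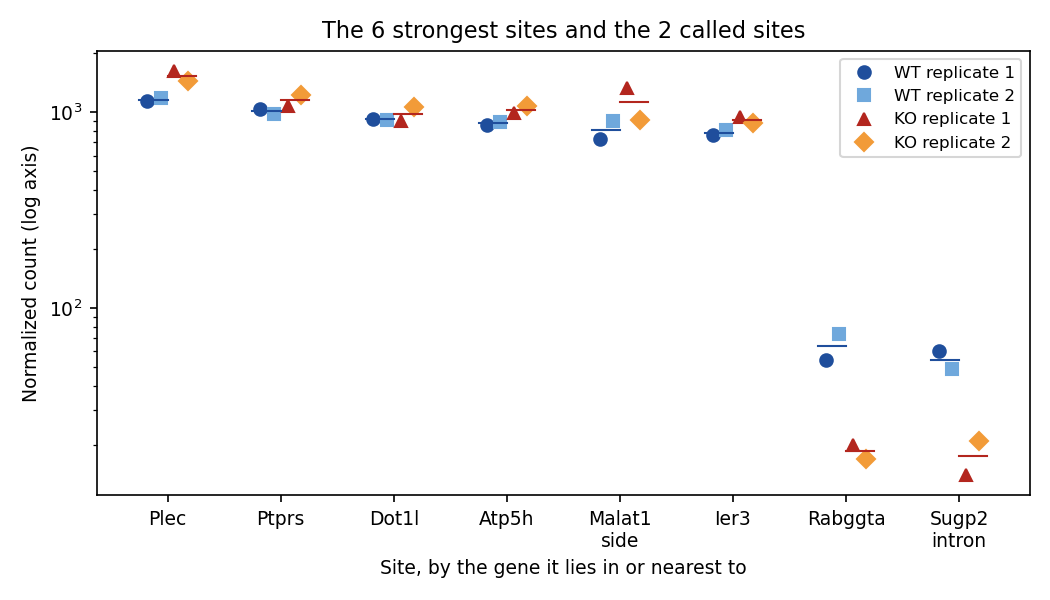
Normalized counts (log axis) of the 6 strongest nonpromoter sites and the 2 called sites of gene-dense regions, 1 point per library, with short lines at the mean of each genotype. At the Plec site both KO libraries (1622 and 1433) sat above both WT libraries (1141 and 1174), and at the Rabggta site both KO libraries (20 and 17) sat below WT (54 and 74).

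Plec was also the gene nearest to the most members, 12 of them, and was looked at as a locus after its values were seen. In 10 of the 12 the fold change was above 0, with a median of 0.27. In 6 both KO libraries exceeded both WT libraries, as they did in 14.6% of all sites. Several of these are strong sites, and all members with a mean of 240 or more had a median of 0.17. Another intronic site (chr15:76204089-76204683) had 294 and 332 in WT and 441 and 493 in KO, a log2 fold change of 0.58 (SE 0.14, limma adjusted p = 1). The exceptions at the locus were weak or variable sites. For example, the site at chr15:76188449-76189021 had 210 and 129 in WT and 280 and 87 in KO. Chromosome 15 as a whole was shifted in KO replicate 1: its other nonpromoter sites deviated there by 0.16 on the log2 scale from the mean of the 4 libraries, and by -0.020 in KO replicate 2. At the strongest Plec site KO minus the WT mean was 0.49 in KO replicate 1 and 0.31 in KO replicate 2 (log2), and after centring each chromosome the fold change was 0.28.

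A difference was called where the unadjusted limma p was under 0.01 and the genotypes differed by at least 1 on the log2 scale, that is, 2-fold. Only 2 of the 1522 members (0.131%) were called, both lower in KO, against 0.373% of all sites in either direction and 0.302% of all sites in the lower direction. The first was intergenic, 8.01 kb upstream of Rabggta, which encodes a subunit of the Rab prenylation enzyme (chr14:55730025-55730523). Its counts were 54 and 74 in WT and 20 and 17 in KO, a log2 fold change of -1.72 (SE 0.39, limma adjusted p = 1). The second lay in an intron of Sugp2, a gene of an RNA-binding protein (chr8:70237948-70238200). This site was 3.61 kb from the nearest gene start, that of Armc6, and 1.69 kb from an alternative transcript start. It had 60 and 49 in WT and 14 and 21 in KO (log2 fold change -1.60, SE 0.42, limma adjusted p = 1).

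Both called sites were below the median level of all sites, and leaving out any 1 library raised the p of each above the threshold. Without the fold filter 4 members had p under 0.01, the 2 called sites and the 2 Plec sites above, against 0.52% of all sites. At an unadjusted limma p under 0.05 there were 27 members (1.77%, 12 lower and 15 higher in KO), against 3.13% of all sites, and no member or other site had an adjusted p under 0.05. Both KO values lay below both WT values in 206 members (13.5%, all sites 14.3%), and above them in 230 (15.1%, all sites 14.6%). Scaling the libraries to equal totals changed that split to 19.2% lower and 10.7% higher, and the background to 19% and 10.9%. Among sites at or above the median signal the members gave 9.87% and 20.3%, and all sites 10.2% and 19.6%. Under each of these settings the members' shares stayed near those of all sites.

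**Figure D2:**
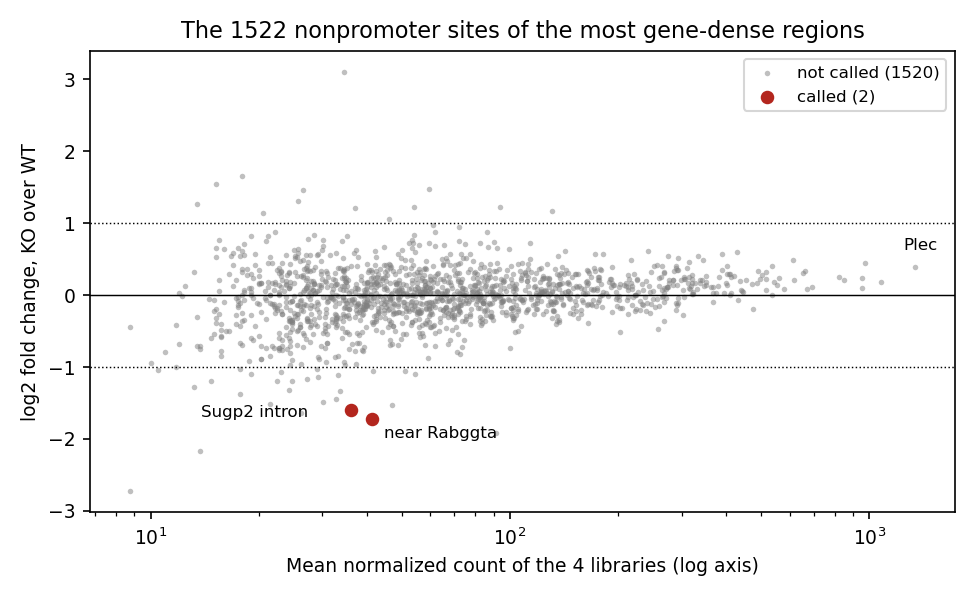
Log2 fold change, KO over WT, against the mean normalized count (log axis) of each of the 1522 members, with dotted lines at a 2-fold change. The 2 called members, in red, are both lower in KO and of low signal. The strong sites on the right scatter less and lean above 0, with a median of 0.17 at a mean of 240 or more.

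The largest fold changes belonged to weak sites or sites with 1 deviant library, and these were picked out after their values were seen. Near Ddr1, a collagen receptor gene, a site had 35 and 0 in WT and 61 and 42 in KO; its fitted log2 fold change of 3.11 rests on the 0 in WT replicate 2. Near Sprr4, a gene of the cornified envelope of skin, a site had 11 and 21 in WT and 1 and 2 in KO. A site near Nfatc4 had 167 and 111 in WT and 18 and 69 in KO (log2 fold change -1.91, SE 0.63). Among the members higher in KO at p under 0.05 were a site near Acp7 with 54 and 55 in WT and 101 and 165 in KO, an intronic site of the syndecan gene Sdc4 with 782 and 715 against 883 and 904, and a pair of intronic sites of Lrp1, an endocytic receptor gene, one with 132 and 145 against 212 and 200 and the other with 315 and 377 against 413 and 501. An exonic site of Adcy6, an adenylyl cyclase gene, was lower, with 48 and 49 in WT and 15 and 23 in KO.

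As a group the members did not separate the genotypes. The median normalized count was 60 and 53.5 in WT and 59 and 54 in KO, so WT replicate 1 went with KO replicate 1 and WT replicate 2 with KO replicate 2. The median log2 fold change was 0.018, beside 0.0062 over all sites. KO minus the WT mean had a median of 0.057 in KO replicate 1 and -0.029 in KO replicate 2, while the WT lines differed from each other by 0.11. Scaled to equal totals the median of the members turned to -0.050, as the whole table moved with it. The share of a library's signal in members was 1.80% and 1.72% in WT and 1.86% and 1.69% in KO, a difference of 0.017 percentage points (exact permutation test over libraries, two-sided, p = 1). With 2 libraries against 2 the smallest p such a test can give is 0.333.

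Set against other classes of sites, the genotypes overlapped or differed by little. The median log2(value + 1) of members stood above that of the 57417 other nonpromoter sites by 0.50 and 0.34 in WT and by 0.48 and 0.36 in KO (KO minus WT -0.0053, exact permutation p = 1). Minus that of the 1958 promoter sites of the same dense regions it was -1.45 and -1.49 in WT and -1.49 and -1.56 in KO (KO minus WT -0.053, exact permutation p = 0.667), and with a pseudocount of 8 both KO libraries fell below both WT libraries (-0.051, exact permutation p = 0.333, the smallest possible). Against the 1598 nonpromoter sites with no protein-coding TSS within 500 kb, the member level was higher by 0.93 and 0.68 in WT and by 1.32 and 0.57 in KO (KO minus WT 0.14, exact permutation p = 1). The KO lines lay on either side of both WT lines there. Per kb of site, the median level was 137.1 for members, 103.6 for other nonpromoter sites, 81 for the sites far from genes and 261.4 for the promoter sites.

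The spread between lines was smaller over members than over the other nonpromoter sites. The SD of the log2 fold change was 0.40 over members, 0.57 over the other nonpromoter sites and 0.98 over the sites far from genes. The difference between the WT lines, in which genotype plays no part, had SDs of 0.53, 0.76 and 1.04 in the same order. Promoter sites of the same dense regions had an SD of the fold change of 0.31, and nonpromoter sites with 20 to 39 TSSs nearby one of 0.43, so the low spread was shared with the classes most like the members. Signal differed between the classes. Among sites with a mean of 60 to 120, the SD of the fold change was 0.31 for 373 members, 0.44 for the other nonpromoter sites, 0.75 for those far from genes and 0.30 for the promoter sites of dense regions. The part of signal, GC content and region in these spreads was not tested beyond this. Pairs of libraries had rank correlations of 0.875 to 0.911 over members and of 0.756 to 0.845 over the other nonpromoter sites. These are descriptions across sites, which share libraries and are not replicates.

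Along the whole range of gene density, the libraries shifted in opposite directions in different lines. From sites with no protein-coding TSS within 500 kb to members, the median of KO replicate 1 minus the WT mean went from -0.31 to 0.057, and that of KO replicate 2 from 0.17 to -0.029. The WT lines differed in the same way, their median difference going from -0.17 to 0.11. The bins between had medians in KO replicate 1 of -0.085, 0.0079, 0.048 and 0.069 for 1 to 4, 5 to 9, 10 to 19 and 20 to 39 TSSs, with the highest value in the bin next to the members. In KO replicate 2 they were 0.12, 0.017, -0.045 and -0.044, and the members came back up from there. The median fold change of the genotypes was -0.10 in the sites far from genes and between -0.0038 and 0.018 in the other bins, members included. The share of sites called was 2% far from genes and 0.633%, 0.368%, 0.234%, 0.0876% and 0.131% in the bins that followed, so members were not below the bin before them. The GC content of the 100 kb around the sites moved with density, from a median of 38.4% far from genes to 49.2% in members. Once each library had been centred by this GC content, the difference between members and the sites far from genes was 0.20 instead of 0.37 in KO replicate 1, and -0.0054 instead of -0.20 in KO replicate 2.

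**Figure D3:**
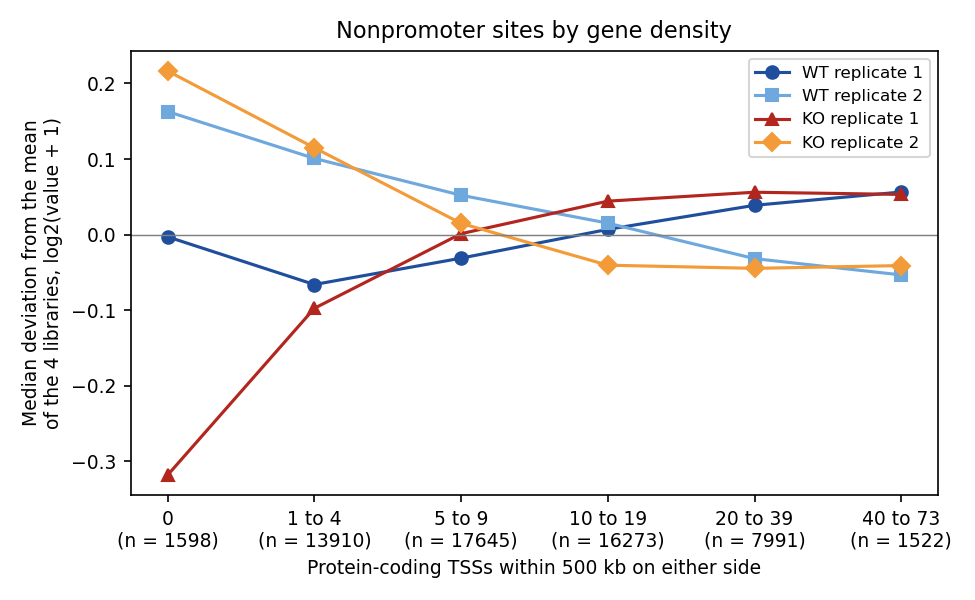
Median deviation of each library from the mean of the 4 libraries, log2(value + 1), for nonpromoter autosomal sites in 6 bins of gene density, the members being the bin of 40 to 73 TSSs. In the members, replicate 1 of each genotype lay above 0 (WT 0.056, KO 0.053) and replicate 2 of each below it (WT -0.053, KO -0.041), while KO replicate 1 was lowest (-0.32) and KO replicate 2 highest (0.22) at sites with no gene nearby.

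The members were not spread evenly. Chromosomes 7, 11, 17 and 10 held 932 of them (61.2%), with 300, 246, 199 and 187, and 2 autosomes, 12 and 16, had none. The deviation of the libraries differed by chromosome. On chromosome 19, with 118 members, the medians were 57.5 and 52.5 in WT and 81 and 53 in KO. KO replicate 1 was 0.58 above the WT mean and KO replicate 2 was -0.069 from it, so that 28 members (23.7%, all sites 14.6%) were higher and 2 (1.69%, all sites 14.3%) lower in KO without overlap, and the median fold change was 0.24. The promoter sites of dense regions there had a median of 0.26, and the remaining nonpromoter sites of the chromosome 0.22. On chromosome 14, with 31 members, the medians were 44 and 34 in WT and 33 and 32 in KO, and 13 members (41.9%, all sites 14.3%) were lower and 1 (3.23%, all sites 14.6%) higher without overlap. There WT replicate 1 deviated most, by 0.34, and the other nonpromoter sites of the chromosome were shifted in it by 0.26. In bulk cells the number of copies of a chromosome and the accessibility per copy cannot be told apart. Without chromosomes 14, 15 and 19 the 1289 members left had a median of -0.0000. In KO 182 (14.1%) were lower and 184 (14.3%) higher without overlap, against 14.6% and 14.2% of all sites left.

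**Figure D4:**
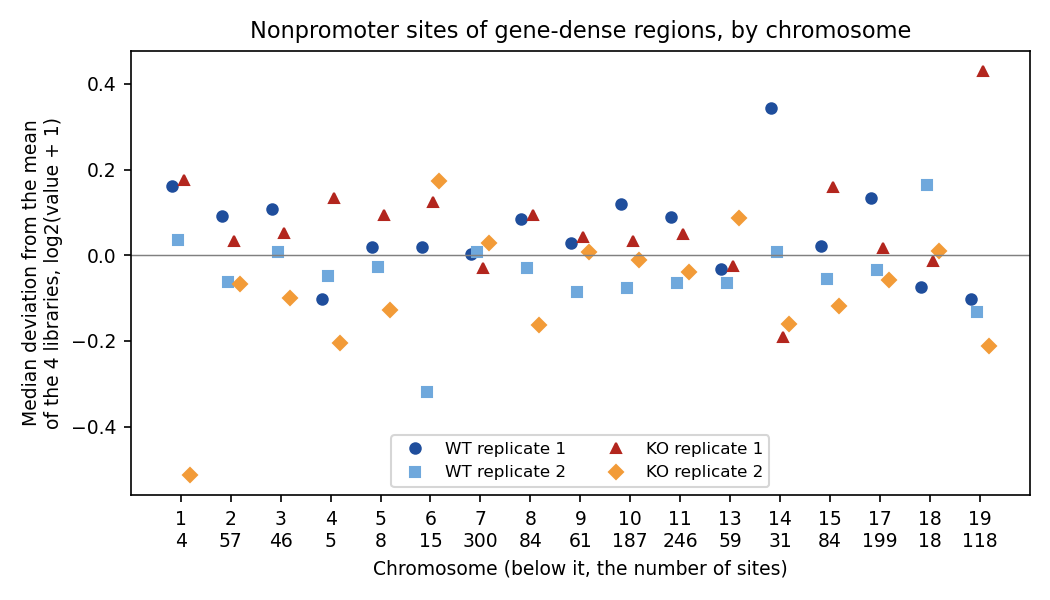
Median deviation of each library from the mean of the 4 libraries, log2(value + 1), over the members of each chromosome, with the number of members below its name. KO replicate 1 stands apart on chromosome 19 (0.43) and WT replicate 1 on chromosome 14 (0.34), and the extreme KO replicate 2 value on chromosome 1 rests on 4 sites.

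Members no more than 500 kb apart were joined into 49 blocks, of which 40 had 10 or more members and together held 1486 (97.6%). In 25 of these 40 the KO lines had medians on opposite sides of the WT mean, in 11 both were above it and in 4 both below. The block with the most members was that of chromosome 19 (chr19:3724869-6546391, 118 members). The next was chr10:79538934-81644100 with 109 members and medians of 85 and 66 in WT and 77 and 72 in KO (median log2 fold change 0.033). A block of chromosome 11 that spans a keratin gene cluster (chr11:99081616-101720369, 92 members) had 48.5 and 41 in WT and 48.5 and 40.5 in KO. The block over the major histocompatibility complex (chr17:33695537-36002366, 76 members) had 58 and 54 in WT and 59 and 48.5 in KO (-0.078), and that over the kallikrein genes (chr7:43788040-45916977, 72 members) had 64 and 63 in WT and 59.5 and 64.5 in KO (0.00040). The other large blocks had medians of -0.017 (chr17:23748724-26236137, 94 members), -0.066 (chr10:127255963-129026423, 65 members) and -0.046 (chr11:69171691-70732734, 58 members). In each of the blocks with the most members, apart from that of chromosome 19, the genotypes differed by less than the WT lines did.

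The lowest block was chr7:103860895-105421481, among olfactory receptor and Trim genes, with 10 members of low signal. Olfactory receptors are expressed in the nose, and some Trim proteins act against retroviruses. The block medians were 24.5 and 29 in WT and 15 and 19 in KO, the median fold change was -0.83, and 6 of the 10 members were lower in KO without overlap, as were 14.3% of all sites. The block was picked for its low median. The site in Usp17la had 20 and 25 in WT and 8 and 2 in KO (log2 fold change -2.17, SE 0.89), and the site near Olfr684 had 45 and 45 in WT and 14 and 29 in KO. The site near Trim5 was not lower in both KO lines, with 19 and 27 in WT and 13 and 32 in KO. With a pseudocount of 8 the block median was -0.55. Members of gene families such as these have close copies in the genome, and how reads that match several places were treated was not stated. The next lowest block was chr14:54653488-56099213, with 28 members and medians of 46 and 38 in WT and 31.5 and 33.5 in KO (median fold change -0.39). This median was -0.20 without WT replicate 1, -0.57 without WT replicate 2, -0.21 after centring each chromosome and -0.16 among sites of higher signal. The block held the called Rabggta site, the Nfatc4 site and a site near Cbln3 with 42 and 39 in WT and 15 and 21 in KO. Among the highest, after chromosome 19, was chr7:28334532-28867927, with 30 members and medians of 52.5 and 54.5 in WT and 56 and 59 in KO (0.17, and 0.069 without WT replicate 1).

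Promoter sites of the same blocks moved with the members. Over the 39 blocks with at least 5 promoter sites, the block median of the fold change had a Pearson r of 0.73 between members and promoter sites, and 0.66 over the 37 blocks outside chromosomes 14 and 19. The deviation of a single library had r of 0.69 and 0.73 in WT and 0.77 and 0.41 in KO, with chromosomes 14 and 19 included. Each deviation is from the mean of the same 4 libraries, so a shift in 1 line moves all of them. Which lines moved cannot be told from these r values. The points share libraries and neighbouring sequence, so the correlations are descriptions.

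**Figure D5:**
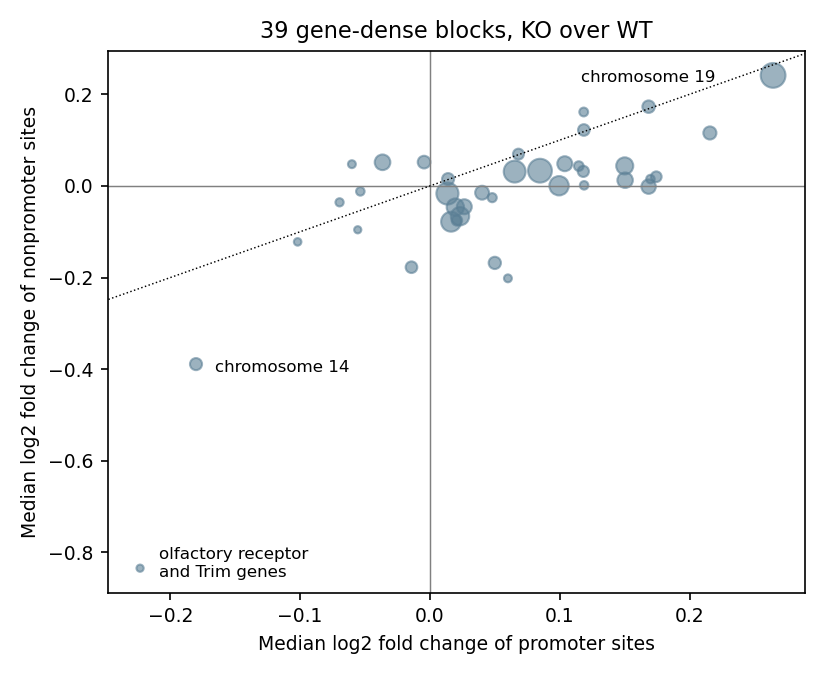
Median log2 fold change, KO over WT, of nonpromoter sites against that of promoter sites in 39 gene-dense blocks, with point area following the number of nonpromoter sites and a dotted line of equality. Chromosome 19 lies at the upper right (0.26 for promoter and 0.24 for nonpromoter sites), and the olfactory receptor and Trim block is lowest (-0.22 and -0.83).

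By annotation, 216 members (14.2%) were exonic, 755 (49.6%) intronic and 551 (36.2%) intergenic, against 5.24%, 53.3% and 41.4% of the other nonpromoter sites. A median distance of 7878 bases separated members from the nearest TSS, and 408 of them (26.8%) were within 3 kb of the start of some alternative transcript, against 10% of the other nonpromoter sites. These 408 had medians of 72.5 and 61 in WT and 70 and 65 in KO, and the remaining members 56.5 and 49 in WT and 56 and 51 in KO. Their median fold changes were 0.0067 and 0.022. Exonic members had a median fold change of -0.00090, intronic 0.013 and intergenic 0.024. Each of these values was smaller than the difference between the WT lines.

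In sequence, the members were richer in GC, with a median of 51.3% over 300 bp against 46.7% for the other nonpromoter sites. The AP-1 motif TGANTCA was in 33.2% of member windows, 44.9% of the other nonpromoter sites, 55.3% of those far from genes and 15.8% of the promoter sites. The share with the CTCF part AGGNGGCNC ran the other way among nonpromoter sites, at 13.1% of members, 6.14% of the others and 3% of those far from genes. It was 9.57% of nonpromoter sites with 20 to 39 TSSs nearby and 12.1% of the promoter sites of dense regions. GC boxes were in 15% of members and 7.58% of the others, ETS motifs in 3.29% and 1.7%, E-boxes (CACGTG) in 6.37% and 4.29%, TEAD motifs in 22.5% and 27.8%, RUNX motifs in 26.1% and 30.1%, and CCAAT in 31% and 33.5%. In the promoter sites of dense regions, GC boxes were in 45.7% and ETS motifs in 11.8%. Motifs of high GC are more frequent where the GC content is high. The 505 members with an AP-1 match had medians of 59 and 53 in WT and 61 and 50 in KO, with KO replicate 1 at 0.15 and KO replicate 2 at -0.067 relative to WT. The 200 with a match to the CTCF part differed less between the WT lines (SD of the log2 difference 0.42) than the 1322 without (0.55), and their median fold change was 0.0091.

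Few members had the start of a gene with a known role in fibroblasts as their nearest protein-coding start, and none was called. Of 11 AP-1 genes only Fosb, an immediate early gene, was the gene nearest to a member. Its 3 upstream members had 404 and 405 in WT against 494 and 439 in KO, 202 and 239 against 305 and 281, and 204 and 254 against 247 and 233. In the first pair of these the KO values lay above WT, with log2 fold changes of 0.20 (SE 0.12) and 0.41 (SE 0.18). Of 22 matrix and fibroblast genes only Ltbp3, which tethers latent TGF-beta, had a member, with 161 and 167 in WT and 207 and 173 in KO. Of 15 contractile genes only Actg1, which encodes cytoplasmic gamma actin, had members, 5 of them with a median fold change of 0.12. The 5 lay from 5.29 to 43.3 kb from the Actg1 start. The strongest had 313 and 324 in WT and 335 and 383 in KO. It was 32.2 kb from that start, and the nearest gene body was that of Bahcc1, 24 kb away. Of 14 immune genes the class I histocompatibility genes H2-D1 and H2-K1 had 5 members with a median fold change of 0.13. Of 15 chromatin genes Hdac3, a histone deacetylase, and Kat5, the Tip60 acetyltransferase, had 3 members. One near Kat5 had 61 and 48 in WT and 79 and 77 in KO, both KO libraries above WT (log2 fold change 0.52, SE 0.32). The other had 39 and 44 in WT and 113 and 42 in KO, and the Hdac3 member 43 and 34 in WT and 67 and 5 in KO, both set by 1 KO line. The background of calls for these lists is the 0.373% of all sites.

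The densest surroundings of a member held 73 TSSs, and the 3 strongest members at that density lay on chromosome 7 in Ppfia3 and Trpm4. The exonic Ppfia3 site had 219 and 252 in WT and 217 and 229 in KO, the intronic one 138 and 142 in WT and 132 and 158 in KO, and the Trpm4 site 167 and 80 in WT and 194 and 86 in KO. At each of the 3 sites the genotypes overlapped. The longest members after that beside Malat1 were an exonic site of Stx4a of 1750 bp, with 424 and 439 in WT and 425 and 477 in KO, and an intergenic site near Rin1 of 1665 bp, with 427 and 357 in WT and 599 and 265 in KO. Just inside the threshold of 40 TSSs were, besides the Ptprs site, strong sites near Pttg1ip (374 and 329 in WT, 410 and 352 in KO) and Znrf4 (573 and 480 in WT, 571 and 590 in KO). Just outside, with 39 TSSs, an intronic site of Nfix had 431 and 570 in WT and 720 and 495 in KO, one of Rarg, a retinoic acid receptor gene, 614 and 561 in WT and 673 and 695 in KO, one of Bcl9l 579 and 502 in WT and 495 and 645 in KO, and one of Fam111a 393 and 438 in WT and 576 and 399 in KO. Members with 60 or more TSSs had a median fold change of 0.017, those with 50 to 59 of 0.033 and those with 40 to 49 of 0.00080.

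Domains of lower accessibility were built by averaging the fold change over 25 consecutive sites and joining stretches under -0.58 that were no more than 1 Mb apart. That fold change joins both KO lines. Far from genes their medians lay on either side of the WT mean, at -0.31 in KO replicate 1 and 0.17 in KO replicate 2. The 167 domains covered 199.4 Mb and held 7 members (0.46%), beside 0.613% of the promoter sites of the same dense regions. They held 4.28% of the other nonpromoter sites, 20.9% of the sites far from genes and 3.76% of all sites. Of the 7, 4 were near the epidermal genes Sprr3, Sprr4 and Lce3a on chromosome 3 and 3 among the Trim genes of chromosome 7. They include the Sprr4 site given above and a site in Trim12c with 10 and 17 in WT and 8 and 5 in KO. The site near Sprr3 did not differ by line in this way, with 54 and 51 in WT and 29 and 66 in KO.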

How the data were processed

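ATAC-Seq of 4 imMEF lines was analysed. Per the labels, nuclei from each line were transposed with Tn5, and the tools named in the processing notes are BWA 0.7.12, MACS2 2.1.0 and DESeq2, with the build mm10. The deposited values are normalized counts, treated here as a score. That they are reads per site divided by a factor for each library and rounded was inferred from the low values. Read filtering and the treatment of the Tn5 offset were not given in the sources used here. The authors' columns of fold changes and p-values were not used.

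Sites were annotated with GENCODE gene starts on GRCm38. The fit was limma 3.58.1 with an intensity trend (R 4.3.3) on log2(value + 1) over all 82325 sites with no filter on low values, with Benjamini-Hochberg adjustment. Fold changes on this scale understate changes of weak sites. Member levels were compared by exact permutation of the 4 libraries. A design on raw counts was set aside since the values are scaled. Simulated data held 200 sites whose genotypes differed by 2 on the log2 scale, a larger change than the 1 needed for a call. All 200 met the criteria for a call. So did 396 of 82125 unchanged sites, more than the 307 calls in the data. The simulation gave all sites the same spread, and detection of changes near the cut-off was not tested. Named sites were the 6 strongest, all called, the 3 with most TSSs, the 3 longest and the 4 strongest on each side of the threshold. One of these is not reported here. Named blocks were the 8 with the most members and the 2 with the lowest and the 2 with the highest median. Printed sequences were those of the 3 strongest and of the called members. Members and lists were chosen with earlier results of these data known.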

Additional observations from a re-analysis of the deposited data

How the results depend on the processing

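Each alternative changed 1 choice. The count of called members was 2, and it was 0 among sites at or above the median signal, which leaves out both called sites by construction. It was 6 by limma without the trend (537 of all sites, 0.652%), 4 at p under 0.01 with no fold filter (428 of all sites) and 0 at an adjusted p under 0.05, where 27 had an unadjusted p under 0.05. It was 1 without chromosomes 14, 15 and 19 and 1 at a threshold of 50 TSSs. Both settings leave out the Rabggta site by construction, as it lies on chromosome 14 with 49 TSSs nearby. With no TSS within 5 kb it was 1, and with the starts of all transcripts 1. Both leave out the Sugp2 site by construction, as it lies 3.61 kb from a gene start and 1.69 kb from an alternative transcript start. Leaving out 1 library in turn gave 0 to 3 calls (36 to 612 over all sites), an alternative chosen after seeing the data, in which the lone library is assumed to vary like the others.

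KO minus WT of the member level against other nonpromoter sites (-0.0053) became 0.0087 with GC correction, 0.022 without chromosomes 14, 15 and 19, 0.068 and 0.043 at thresholds of 30 and 50 TSSs, 0.012 and 0.019 with no TSS within 1 and 5 kb, and 0.022 with all transcript starts, and ranged from -0.087 to 0.076 without 1 library. Against dense promoter sites (-0.053) it became 0.0058 with quantile normalization, 0.0093 among sites of higher signal, 0.027 at 30 TSSs and 0.00070 with all transcript starts. Against sites far from genes it ranged from -0.23 to 0.52 without 1 library. The share of signal changed sign with chromosome centring (-0.016) and without chromosomes 14, 15 and 19 (-0.012), and ranged from -0.066 to 0.10 without 1 library. Apart from those against dense promoter sites, these sign changes are within the spread between lines. Against dense promoter sites that spread was small (SD 0.026 in WT and 0.055 in KO), and the changes were of like size or larger. The design cannot pass a threshold for any of these measures.

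Without 1 library the share of members not overlapping ranged from 22.6% to 36.7% lower and from 25.7% to 39.6% higher. Over all sites the ranges were 28.7% to 33.8% lower and 29.5% to 34.7% higher. Without WT replicate 1 it was 22.6% lower and 35.6% higher (all sites 29.3% and 29.5%), and without WT replicate 2 34.5% and 25.7% (all sites 28.7% and 30%), so members departed from all sites in opposite directions. The difference in fold change between members and sites far from genes (0.12) was 0.0075 with quantile normalization, -0.058 among sites of higher signal and -0.20 to 0.37 without 1 library. In KO replicate 1 alone (0.37) it was 0.20 with quantile normalization, 0.088 among sites of higher signal, 0.20 with GC correction and 0.20 to 0.55 without a library. In KO replicate 2 alone (-0.20) it was -0.0054 with GC correction and -0.34 to -0.070 without a library. Where no construction is named, the cause was not tested.

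Of the named sites, quantile normalization turned the Dot1l (-0.17), Atp5h (-0.020), Ier3 (-0.014) and Ptprs (-0.12) sites. Without 1 library the Dot1l site ranged from -0.024 to 0.21. The Rabggta site was no longer called after chromosome centring (-1.54). The chromosome 19 block was at -0.069 without KO replicate 1 and at 0.58 without KO replicate 2. No paired analysis was possible because replicates were numbered by accession and only 1 line number is shared between genotypes. With 2 lines per genotype, a shift of a whole line and an effect of genotype are told apart only by agreement of the lines.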

Other observations

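The gene-dense regions were not alike in how many of their genes had an open start. The share of protein-coding TSSs within 500 kb of a member that had a site within 3 kb ranged from 6.35% to 97.8%, with a median of 75.6%. It was lowest among the olfactory receptor and Trim genes (median 14.3% over 10 members) and reached 83.9% in the chromosome 19 block. Where it was under 50% (163 members of 14 blocks), medians were 52 and 51 in WT and 52 and 42 in KO, and 19.6% of members were lower and 10.4% higher in KO without overlap, against 14.3% and 14.6% of all sites. The median against the WT mean was 0.015 in KO replicate 1 and -0.13 in KO replicate 2. At 75% or more (830 members), medians were 63 and 55 in WT and 63 and 56 in KO, with 12.4% lower and 16% higher. These groups were made after the values of the blocks had been seen, and no test was run on them.

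The members had 850 nearest protein-coding genes, 499 of them with 1 member and 15 with 7 or more. Besides Plec, 10 members were nearest to Ier2, an immediate early gene, with medians of 46.5 and 38.5 in WT and 63 and 36 in KO. The 7 members nearest to Nxph4 had medians of 70 and 51 in WT and 39 and 53 in KO, with 6 of them below 0 in fold change. The 7 nearest to Ddr1, named after its values were seen, had a median fold change of -0.72. Of these 5 were lower in KO without overlap, against 14.3% of all sites, although the member with the largest rise was among the 7. The 9 nearest to Nfic, a nuclear factor I gene, had 85 and 64 in WT and 71 and 71 in KO.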
